A study of Mus musculus with 4 samples.

Results

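Semaphorins, their plexin receptors and the neuropilin co-receptors were followed in embryonic mouse brain in which the genes of the transcription factors Sox4 and Sox11 had been deleted with Brn4::Cre. They were taken as all probe sets on the array whose annotation names a single gene of semaphorin classes 3 to 7, of the plexin A, B, C or D families, or Nrp1 or Nrp2. This gave 31 of the 18193 genes named on the array, read by 78 of 45037 probe sets, and made up of 20 semaphorins, 9 plexins and 2 neuropilins. The rule used gene names and no measured value, but the family was chosen with earlier results of these data known. The 2 double-knockout arrays carried Brn4::Cre, Sox4 flox/flox and Sox11 flox/flox, and the 2 control arrays carried Sox4 flox/flox and Sox11 flox/flox without the Cre. All 4 held total RNA of whole brain taken at embryonic day 14.5, in mice of mixed 129SvJ/C57Bl/6J descent. The study's title speaks of the spinal cord, and the labels of every array name the brain. Floxed alleles are lost only in cells that made the recombinase or descend from them. Brn4 is another name of Pou3f4, a POU-domain factor of the developing nervous system. The arrays of a genotype are labelled as biological replicates, with neither the number of embryos behind each nor their sex given.

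Semaphorins are guidance proteins that share an extracellular sema domain and steer growing axons, migrating neurons and vessels. Class 3 members are secreted, those of classes 4, 5 and 6 span the membrane, and Sema7a is tethered by a lipid anchor. Plexins receive the signal through an intracellular domain that switches off small GTPases of the Ras and Rap kind. Most class 3 semaphorins bind a neuropilin, which pairs with a plexin of the A family, while membrane semaphorins bind plexins directly. In the embryonic brain the system repels or attracts axons, sorts interneurons on their way to the cortex and shapes the vascular bed.

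The targeted genes were checked first. All 6 Sox11 probe sets fell. Of 8 Sox4 probe sets 4 fell, 1 rose and 1 did not pass, while 2 were too dim to test. Where these probe sets lie relative to the deleted sequence is not known here, so a probe set beyond it would be no check of the labels. Log2 signals correlated at 0.974 between the double-knockout arrays and 0.974 between the control arrays, against 0.962 to 0.966 across genotypes. Of marker lists for the cells a whole brain holds, all 10 neuronal genes were measured and 11 of 11 tested microglial and macrophage genes rose. The summed signal of 12 microglial genes was 26489 and 23655 in double-knockout brains, against 6986 and 7765 in controls, with Trem2 the dimmest and 0 values at zero. That of 10 endothelial genes was 16718 and 16303 in double knockouts, against 12564 and 13557 in controls, with 5 that rose and Tie1 the dimmest. That of 10 pericyte, meningeal and mesenchymal genes was 43580 and 44615 in double knockouts, against 33026 and 34845 in controls, with 4 that rose. Each of these 3 lists summed higher in both double knockouts than in either control. That of 10 neuronal genes was 122260 and 117010 in double knockouts, against 138744 and 144570 in controls, with 5 that fell and 2 that rose. The 10 radial glial genes summed to 81580 and 83756 in double knockouts, against 79484 and 75009 in controls, with 4 that rose and 1 that fell. The 6 oligodendrocyte lineage genes summed to 15296 and 13596 in double knockouts, against 12316 and 13303 in controls, with 1 that rose and 1 that fell. The 4 blood genes summed to 35814 and 37374 in double knockouts, against 35261 and 35280 in controls, and of 3 tested none passed. The radial glial, oligodendrocyte lineage and blood lists thus also summed higher in both double knockouts than in either control. Beside the counts of markers called, 16.3% of all 12489 genes tested rose and 11.0% fell. No marker of these lists read 0 on any array. The part of these cell types in the values below was not tested unless a value is given, and in whole tissue fewer cells of a type and less RNA per cell cannot be told apart.

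**Figure D1:**
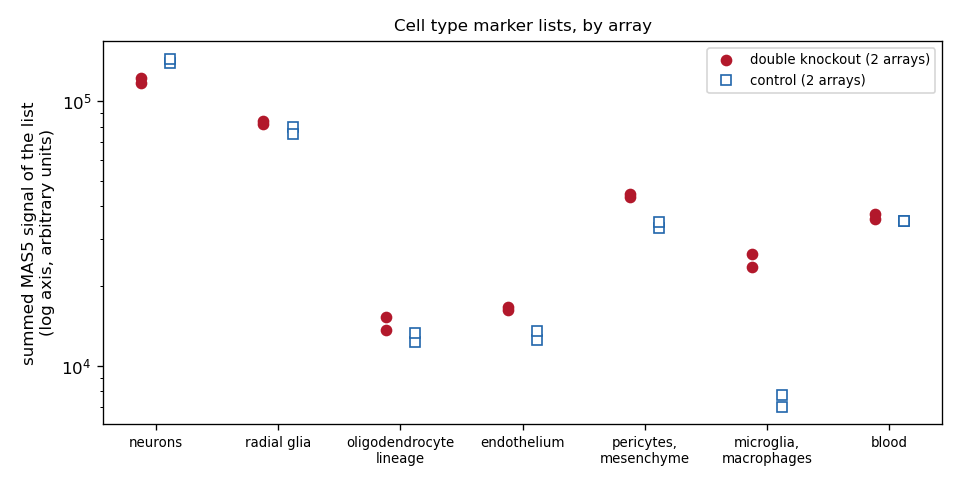
Summed MAS5 signal (log axis, arbitrary units) of each cell type marker list on the 2 double-knockout arrays (filled circles) and the 2 control arrays (open squares). The microglial and macrophage list reads 26489 and 23655 in double knockouts, against 6986 and 7765 in controls, and the neuronal list is lower in both double knockouts.

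Semaphorin pathway genes rose and fell in the double-knockout brain, and both directions occurred among semaphorins and among plexins. Read at the brightest probe set, Sema3f, Sema4a, Sema4c, Sema4g, Sema6c, Sema7a, Plxna1, Plxna3 and Plxnb1 fell, and Sema3c, Sema3d, Sema4b, Sema5a, Plxnb3, Plxnd1 and Nrp1 rose. That is 9 that fell and 7 that rose among 30 genes tested, or 53.3%, where 27.3% of all 12489 genes tested were called, 16.3% as rises and 11.0% as falls (limma, adjusted p under 0.05 over all probe sets tested). By probe set, 15 fell and 9 rose of 58 tested, or 41.4%, where 23.2% of all 27022 probe sets were called, 11.7% up and 11.6% down. The median log2 change of the member genes was 0.13, beside 0.06 over all genes tested, and by probe set it was -0.02, beside -0.01. The double-knockout and control signals did not overlap at the brightest probe set of 27 of 30 genes, with 15 above and 12 below, where 66.9% of all genes tested did not overlap. By probe set this held for 43 of 58, beside 62.9% of all.

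Of the 78 probe sets, 20 were below the signal filter and were not tested, and Sema3b was the sole gene with no tested probe set. The filter fell at a signal of 154.6. Just outside it lay the Sema6a probe sets 1421414_a_at and 1425903_at, and just inside it 1446536_at of Sema6d and 1450906_at of Plxnc1, which did not pass. Of the untested ones, 1422040_at of Sema7a read 44.3 and 43.4 in double knockouts, against 101 and 69.6 in controls, below both controls like the tested probe set of that gene. The untested 1427586_at of Sema4b read 76.7 and 23.4 in double knockouts, against 96.1 and 84.8 in controls, opposite in direction to that gene's tested probe set. The untested 1418750_at of Plxnb3 read 108 and 10.7 in double knockouts, against 80.4 and 35.9 in controls, with overlap. No gene had both a called rise and a called fall among its probe sets. Leaving out single arrays changed the counts. Of the genes read at the brightest probe set, 2 rose without double-knockout 1, 4 without double-knockout 2, 5 without control 1 and 5 without control 2. The number that fell was 9, 6, 8 and 8 in the same order.

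**Figure D2:**
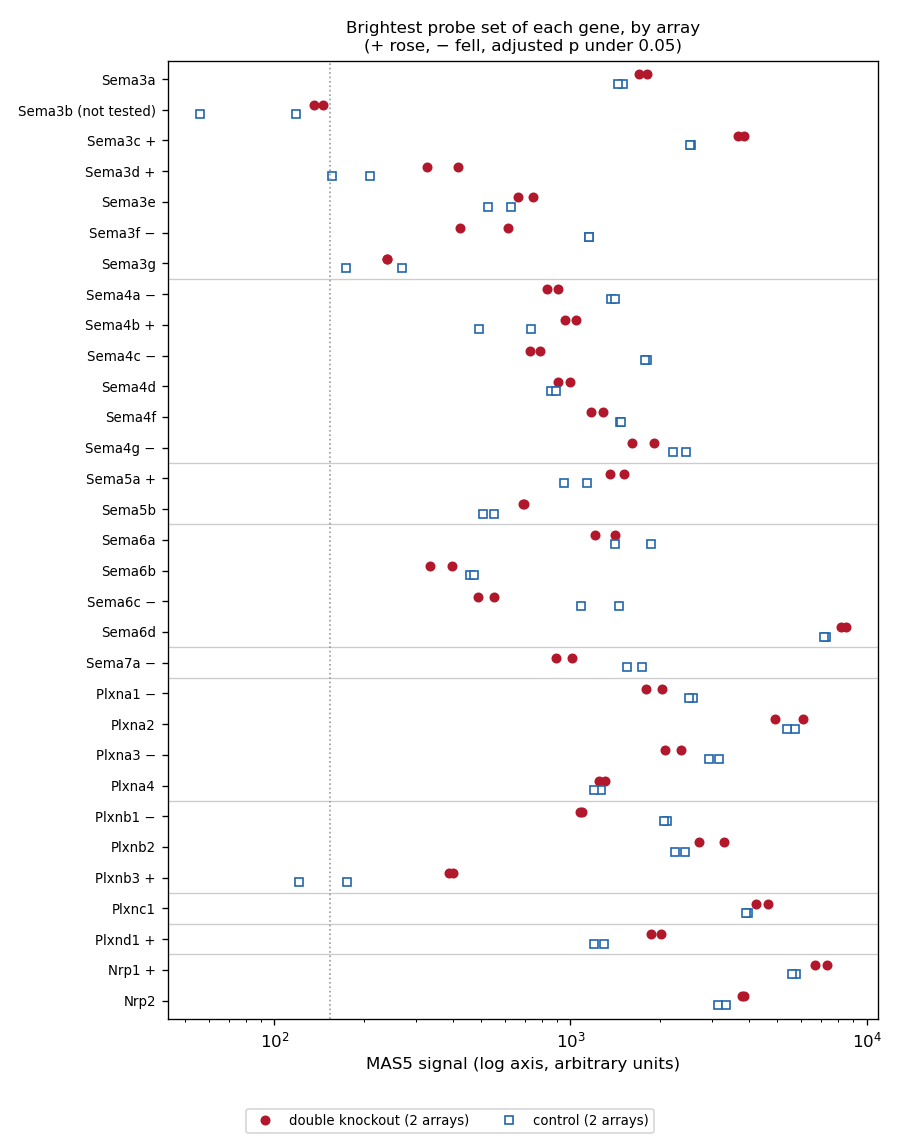
MAS5 signal (log axis, arbitrary units) at the brightest probe set of each of 31 genes, with filled circles for the 2 double-knockout arrays and open squares for the 2 control arrays. Plus and minus signs beside names mark the 7 genes that rose and the 9 that fell, lines separate classes, and the dotted line is the filter at 154.6.

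The promoters of 4 called members are shown because Sox proteins bind DNA directly through a short core sequence. RefSeq's table of gene starts (GRCm38.p6) matched 26 of the 31 genes, with 37 starts, and the 250 bases before each were searched on both strands. The letters were ACAAAG and ACAATG, forms of the core that Sox proteins bind, and GGGCGG, the GC box bound by Sp1-type factors. None of them overlaps another, and they were chosen with the results known. Matches stand in capitals below, where GGGCGG may read CCGCCC and ACAATG may read CATTGT on the strand printed. Of the 3 genes that fell, each is shown at its most upstream listed start, and Plxnb3 is a plexin that rose. Sema3f, Sema3b, Sema6a, Plxna1 and Plxna4 are not among the 26.
Plxnb1, chr9:109095186-109095435, plus strand: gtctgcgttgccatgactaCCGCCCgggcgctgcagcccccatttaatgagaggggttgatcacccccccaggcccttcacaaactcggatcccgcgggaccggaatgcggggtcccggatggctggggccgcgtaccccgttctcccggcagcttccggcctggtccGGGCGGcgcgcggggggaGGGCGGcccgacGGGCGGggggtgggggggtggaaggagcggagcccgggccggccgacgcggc
Sema4c, chr1:36558382-36558631, minus strand: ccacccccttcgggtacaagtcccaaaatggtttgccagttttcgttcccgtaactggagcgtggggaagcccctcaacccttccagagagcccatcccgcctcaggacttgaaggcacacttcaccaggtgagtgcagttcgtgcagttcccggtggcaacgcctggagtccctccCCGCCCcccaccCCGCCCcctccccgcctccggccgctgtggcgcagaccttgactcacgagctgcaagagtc
Sema6c, chr3:95160170-95160419, plus strand: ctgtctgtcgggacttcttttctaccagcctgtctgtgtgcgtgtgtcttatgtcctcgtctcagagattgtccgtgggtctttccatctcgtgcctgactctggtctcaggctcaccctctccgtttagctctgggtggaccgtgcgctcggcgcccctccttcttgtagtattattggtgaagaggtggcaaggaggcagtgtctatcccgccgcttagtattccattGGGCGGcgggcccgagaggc
Plxnb3, chrX:73756853-73757102, plus strand: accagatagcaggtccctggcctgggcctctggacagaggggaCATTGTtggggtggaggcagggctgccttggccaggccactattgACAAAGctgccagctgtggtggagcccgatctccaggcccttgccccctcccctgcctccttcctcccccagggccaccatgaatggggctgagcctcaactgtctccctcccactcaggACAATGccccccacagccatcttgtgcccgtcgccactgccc
The Plxnb1 window held 4 GC boxes and was 75.2% G and C, the Sema4c window held 2 and the Sema6c window 1. None of these 3 windows held ACAAAG or ACAATG. The Plxnb3 window on the X chromosome held 1 ACAAAG, 2 ACAATG and 0 GC boxes. The other called members did not divide in this way. Sema4a fell and held 1 ACAATG, and Sema3d rose and held 2 ACAAAG. Nrp1, Plxnd1, Sema3c, Sema4b and Sema5a rose with neither Sox core, and Plxna3, Sema4g and Sema7a fell with neither. Over all 37 windows of the family, 5 (13.5%) held ACAAAG, beside 16.5% of all 32851 windows, and 5 (13.5%) held ACAATG, beside 10.7%. GGGCGG was in 27 windows (73%), beside 32.7% of all, and their median G and C content was 64%, beside 52.4%. These are matches of letters in short windows and say nothing of binding.

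Among the secreted class 3 semaphorins, Sema3f fell and Sema3c and Sema3d rose, while Sema3a, Sema3e and Sema3g did not pass. Sema3f repels axons and migrating interneurons through Nrp2 and Plxna3. At its brightest probe set, 1438947_x_at, it read 613 and 424 in double-knockout brains, against 1153 and 1152 in controls. Both double knockouts lay far below both controls, a log2 change of -1.15 ± 0.18 (SE, n = 2 arrays each; limma adjusted p = 0.00145). A second probe set, 1425840_a_at, read 85.6 and 89.4 in double knockouts, against 386 and 368 in controls (log2 change -1.92 ± 0.25, limma adjusted p = 0.000628), a 3.8-fold fall on that scale. The third, 1420508_at, read 32.9 and 19.0 in double knockouts, against 311 and 331 in controls and was too dim on average to be tested. The suffix of 1438947_x_at marks probes that may also match other transcripts, as it does for the brightest probe sets of Sema4a and Sema4f. At all 3 Sema3f probe sets both double knockouts lay below both controls. Of all tested probe sets 62.9% did not overlap, in either direction. The double-knockout signals of 1425840_a_at lay below the filter level of 154.6, so that it was tested through its controls and the size of its fall depends on the pseudocount. It was not tested without control 1, without control 2 or at the stricter filter, and passed in the other 10 alternative fits. The brightest probe set passed in all 13.

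Sema3c acts on callosal axons and on the cardiac outflow tract through neuropilins. It read 3688 and 3862 in double knockouts, against 2545 and 2542 in controls (1429348_at, log2 change 0.57 ± 0.09, limma adjusted p = 0.00209). The dimmer 1420696_at read 211 and 214 in double knockouts, against 236 and 211 in controls and did not pass. Averaged over its probe sets Sema3c did not pass either (log2 change 0.25, limma adjusted p = 0.116). Sema3d, a secreted guidance cue that binds neuropilins, read 328 and 416 in double knockouts, against 211 and 157 in controls (1429459_at, log2 change 0.96 ± 0.24, limma adjusted p = 0.0173). Its controls stood close to the filter, and the call was lost without double-knockout 1 (1.12, limma adjusted p = 0.0648), without double-knockout 2 (0.80, adjusted p = 0.151) and without the filter (0.96, adjusted p = 0.0664).

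Sema3a, the archetypal repellent of cortical and sensory axons acting through Nrp1, read 1700.5 and 1817 in double knockouts, against 1499.5 and 1446 in controls (log2 change 0.25 ± 0.11, limma adjusted p = 0.13). Its dimmer probe sets had changes of -0.08 and -0.10. Sema3e, which binds Plxnd1 without a neuropilin, read 666 and 747 in double knockouts, against 525 and 628 in controls (0.29 ± 0.16, limma adjusted p = 0.219) and, at 1419717_at, 741 and 662 in double knockouts, against 560.3 and 448 in controls (0.47 ± 0.17, adjusted p = 0.0675). Both tested Sema3e probe sets were higher in both double knockouts without passing, where 62.9% of all probe sets did not overlap in either direction. The mean of the 2 Sema3e probe sets passed (0.38, limma adjusted p = 0.0372). Sema3g, a ligand of Nrp2, read 239.8 and 240.5 in double knockouts, against 269 and 174 in controls, so that its groups overlapped. Sema3b, which acts on commissural axons, read 146 and 136 in double knockouts, against 118 and 56.0 in controls at its brightest probe set and was not tested.

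The membrane semaphorins of class 4 were 6 of the 30 genes tested and held 3 of the 9 that fell, where 11.0% of all genes tested fell. Sema4a, Sema4c and Sema4g fell, Sema4b rose, and Sema4d and Sema4f did not pass at the brightest probe set. Sema4c is a ligand of Plxnb2 in the developing brain. It read 729 and 790.2 in double knockouts, against 1819 and 1792 in controls (1433920_at, log2 change -1.23 ± 0.12, limma adjusted p = 0.000131), a 2.35-fold fall with wide separation of the groups. Sema4a, known from retina and immune cells, read 835 and 911 in double knockouts, against 1372 and 1418 in controls (1438934_x_at, -0.67 ± 0.12, limma adjusted p = 0.00404). Its second probe set, 1448110_at, read 380.4 and 333 in double knockouts, against 640.5 and 692 in controls (-0.87 ± 0.17, adjusted p = 0.00455), so that both probe sets fell.

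Sema4g, the other ligand of Plxnb2 known from cerebellar granule cells, read 1922 and 1609 in double knockouts, against 2224 and 2456 in controls (-0.41 ± 0.12, limma adjusted p = 0.0346). This small fall no longer passed without double-knockout 2 (-0.28, limma adjusted p = 0.185), control 2 (-0.34, adjusted p = 0.136), the filter (adjusted p = 0.0712) or the variance trend (adjusted p = 0.118), nor with median centring (-0.37, adjusted p = 0.0614). Sema4b, found at synapses, read 1043 and 956 in double knockouts, against 733 and 489.9 in controls (0.72 ± 0.19, limma adjusted p = 0.0194). The controls differed from each other, and the call was lost without control 2 (0.44, limma adjusted p = 0.0865), double-knockout 1 (0.66, adjusted p = 0.148), double-knockout 2 (0.78, adjusted p = 0.0976), the variance trend (adjusted p = 0.0864) or the filter (adjusted p = 0.0645).

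Sema4d, the ligand of Plxnb1 made by oligodendrocytes and lymphocytes, gave different answers at its probe sets. The brightest, 1420824_at, read 996 and 905 in double knockouts, against 859 and 893 in controls (0.11 ± 0.13, limma adjusted p = 0.578). The dimmer 1434596_at read 347 and 308 in double knockouts, against 165 and 196 in controls and rose (0.81 ± 0.23, limma adjusted p = 0.0286). Without double-knockout 1, double-knockout 2 or control 1 this rise did not pass (0.73, 0.89 and 0.70, limma adjusted p = 0.171, 0.0986 and 0.0805), nor without the filter (adjusted p = 0.0894). The mean of the Sema4d probe sets rose (0.46, limma adjusted p = 0.0326). Sema4f, a semaphorin of postsynaptic sites, read 1290.2 and 1173 in double knockouts, against 1473 and 1484 in controls, lower in both double knockouts without passing (-0.26 ± 0.12, limma adjusted p = 0.138).

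Class 5 semaphorins, which carry thrombospondin repeats and act in retina and cortex, were higher in both double knockouts at all 4 tested probe sets, where 62.9% of all probe sets did not overlap in either direction. The 2 untested Sema5a probe sets overlapped. Sema5a rose at both of its tested probe sets. At 1434776_at it read 1335 and 1209 in double knockouts, against 635 and 635 in controls (log2 change 0.98 ± 0.13, limma adjusted p = 0.00072), and this rise passed in all alternative fits that tested it. At the brightest, 1437422_at, it read 1512 and 1362 in double knockouts, against 950.5 and 1136 in controls (0.46 ± 0.13, limma adjusted p = 0.0323). The call at 1437422_at was lost without control 1 (0.33, limma adjusted p = 0.173), double-knockout 1 (0.39, adjusted p = 0.182), double-knockout 2 (0.53, adjusted p = 0.0836), the filter (adjusted p = 0.0672) or the variance trend (adjusted p = 0.0938). Sema5b read 697 and 689.9 in double knockouts, against 552 and 508 in controls and did not pass (0.38 ± 0.15, limma adjusted p = 0.0943), with a similar 0.40 at its other probe set.

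In class 6, whose members signal through plexins of the A family, Sema6c fell and the others did not pass. Sema6c read 488 and 554 in double knockouts, against 1085 and 1462 in controls (1451898_a_at, log2 change -1.25 ± 0.17, limma adjusted p = 0.00069), the most negative change among the brightest probe sets of the 30 genes. Its dimmer 1423454_a_at read 154 and 249 in double knockouts, against 200.3 and 255 in controls, with overlap. Sema6a, which guides thalamic and corticospinal axons, read 1415 and 1209.7 in double knockouts, against 1416 and 1870.2 in controls, and its upper double knockout lay just under the lower control (-0.31 ± 0.15, limma adjusted p = 0.164). Sema6b read 398 and 335 in double knockouts, against 456 and 471 in controls (-0.33 ± 0.18, limma adjusted p = 0.214). Sema6d, a ligand of Plxna1, read 8507 and 8203 in double knockouts, against 7321 and 7155 in controls (0.21 ± 0.07, limma adjusted p = 0.0705). Sema7a, a promoter of axon growth that binds Plxnc1 and integrins, fell. It read 1011 and 892 in double knockouts, against 1550.4 and 1749 in controls (1459903_at, -0.78 ± 0.13, limma adjusted p = 0.00214), and passed in all alternative fits.

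**Figure D3:**
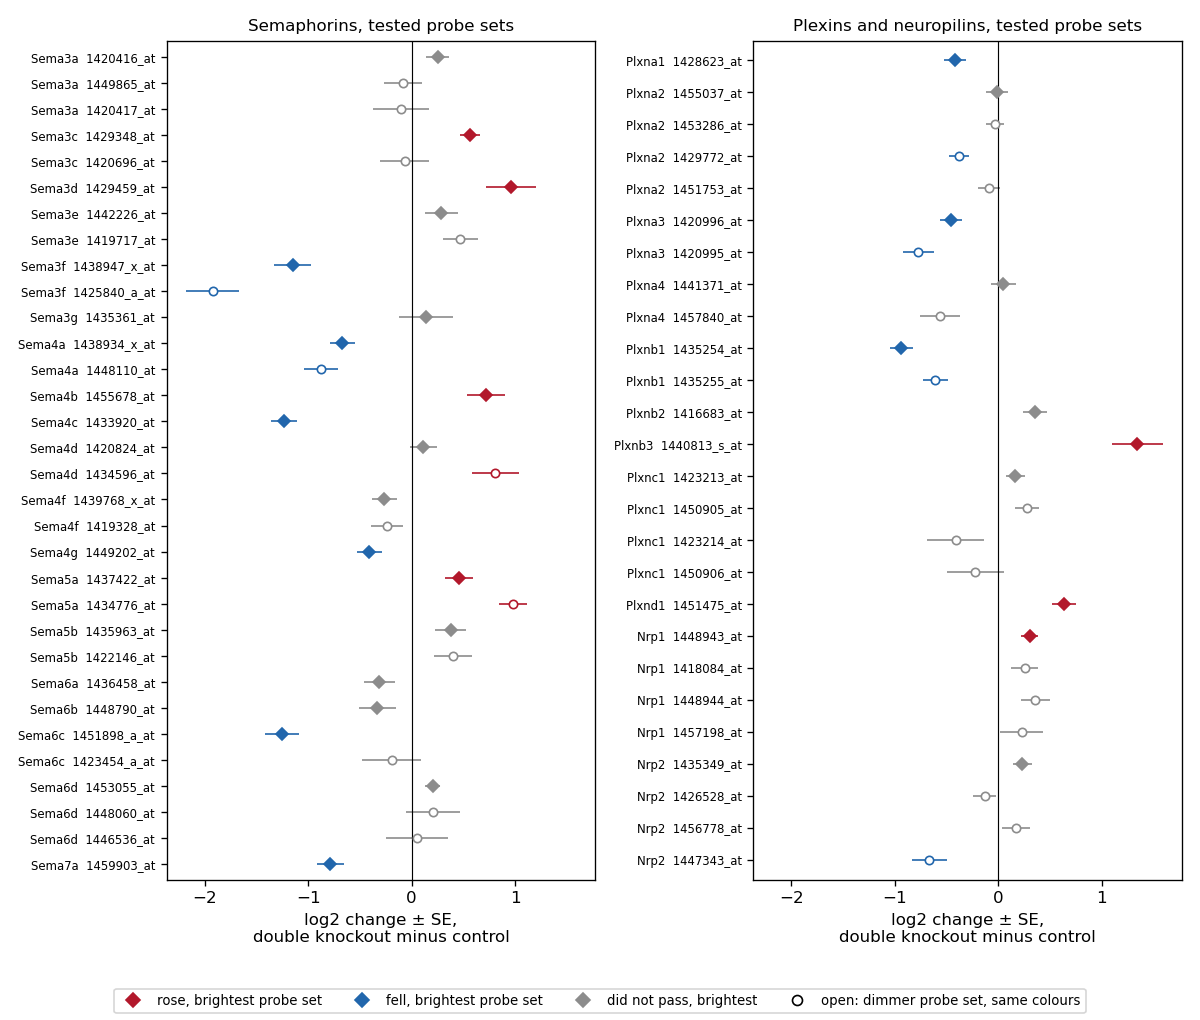
Log2 change (double knockout minus control, ± SE) of the 58 tested probe sets, semaphorins at left, plexins and neuropilins at right, with diamonds for the brightest probe set of a gene and open circles for dimmer ones. The changes run from -1.92 for Sema3f to 1.34 for Plxnb3, and no gene shows a called rise beside a called fall. At these extremes both Sema3f double knockouts lay below the filter level, and the Plxnb3 controls averaged below it.

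At the brightest probe set, 2 of 4 plexins of the A family fell, 1 of 3 of the B family fell and 1 rose, Plxnc1 did not pass and Plxnd1 rose. Of all genes tested 11.0% fell and 16.3% rose. Plxnb1, the receptor of Sema4d, read 1076 and 1092 in double knockouts, against 2116 and 2064 in controls (1435254_at, log2 change -0.94 ± 0.11, limma adjusted p = 0.000359). Its other probe set, 1435255_at, read 978 and 928 in double knockouts, against 1543 and 1379 in controls (-0.61 ± 0.13, limma adjusted p = 0.00683), a call lost without double-knockout 2 (-0.57, adjusted p = 0.0529). Both Plxnb1 probe sets were lower in both double knockouts with no overlap, where 62.9% of all probe sets did not overlap in either direction.

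Plxna3, which with Nrp2 receives Sema3f, fell at both probe sets. It read 2367 and 2080.1 in double knockouts, against 3186 and 2930.3 in controls at 1420996_at (-0.46 ± 0.11, limma adjusted p = 0.0126). At 1420995_at it read 674 and 604 in double knockouts, against 989.7 and 1224 in controls (-0.77 ± 0.15, limma adjusted p = 0.00523). The first was lost without double-knockout 2 (-0.37, limma adjusted p = 0.0817), control 1 (-0.40, adjusted p = 0.0622) or the variance trend (adjusted p = 0.077), and the second without double-knockout 2 (-0.70, adjusted p = 0.0565). Plxna1, a receptor of Sema6d and a partner of neuropilins, read 2035 and 1794 in double knockouts, against 2593 and 2513 in controls (-0.42 ± 0.11, limma adjusted p = 0.0201). That call was lost without double-knockout 2 (-0.33, limma adjusted p = 0.108), control 1 (-0.39, adjusted p = 0.0745) or the variance trend (adjusted p = 0.085).

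Plxna2, a receptor of Sema6a in cerebellum and hippocampus, did not pass at 3 of its 4 probe sets. Its brightest read 6123 and 4922 in double knockouts, against 5725 and 5369 in controls, with overlap (-0.01 ± 0.11, limma adjusted p = 0.942). The probe set 1429772_at read 2415 and 2404 in double knockouts, against 3303 and 2984 in controls and fell (-0.38 ± 0.10, limma adjusted p = 0.021). Without double-knockout 1, double-knockout 2 or control 1 it did not pass (-0.38, -0.38 and -0.31, limma adjusted p = 0.0817, 0.0814 and 0.145), nor without the variance trend (adjusted p = 0.0922) or with median centring (adjusted p = 0.0691). Plxna4, the main partner of Nrp1 for Sema3a in sensory axons, read 1306 and 1251 in double knockouts, against 1264 and 1202 in controls (0.05 ± 0.12, limma adjusted p = 0.793). Its dimmer 1457840_at read 263 and 268 in double knockouts, against 387 and 414 in controls, lower in both double knockouts without passing (-0.56 ± 0.19, limma adjusted p = 0.0584).

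Plxnb3, which binds Sema5a, rose at its brightest probe set. It read 389 and 402 in double knockouts, against 121 and 176 in controls (1440813_s_at, log2 change 1.34 ± 0.25, limma adjusted p = 0.00365). The controls averaged 148, below the filter level of 154.6, so that the probe set was tested through its double knockouts, and its change ran from 1.10 to 1.59 over the alternatives. The probe set carries a suffix for probes that can detect related transcripts, and the rise fell just short without double-knockout 1 (1.37, limma adjusted p = 0.0516) or double-knockout 2 (1.32, adjusted p = 0.0535). Plxnb2, the receptor of Sema4c and Sema4g, read 3309 and 2714 in double knockouts, against 2430.3 and 2256 in controls and did not pass (0.35 ± 0.12, limma adjusted p = 0.0512). Plxnb2 has 1 probe set, so the alternative fit on the mean of each gene's probe sets used the same values for it. There its log2 change was again 0.35, and it passed (limma adjusted p = 0.032). Plxnd1, a plexin of endothelium and of some neurons, rose. It read 1868 and 2019 in double knockouts, against 1299 and 1196 in controls (1451475_at, 0.63 ± 0.12, limma adjusted p = 0.00364) and passed in all alternative fits. Beside it stands the endothelial list, with 5 of 10 genes that rose, where 16.3% of all genes tested rose. These 5, Egfl7, Tek, Cdh5, Esam and Cldn5, changed 1.59-fold, 1.57-fold, 1.42-fold, 1.38-fold and 1.34-fold, and Plxnd1 changed 1.55-fold. The rest of the list did not pass, and the median log2 change of all 10 was 0.39. Kdr, the vascular endothelial growth factor receptor of endothelium, rose by 0.47 on the log2 scale (limma adjusted p = 0.027). The kinase Flt1 did not pass (0.27, limma adjusted p = 0.242). Plxnc1, the receptor of Sema7a, read 4649 and 4217 in double knockouts, against 3983 and 3913 in controls (0.17 ± 0.09, limma adjusted p = 0.219), and none of its 4 tested probe sets passed.

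Of the neuropilins, which also bind vascular endothelial growth factor, Nrp1 rose slightly. It read 7354 and 6717 in double knockouts, against 5797 and 5581 in controls (1448943_at, log2 change 0.30 ± 0.08, limma adjusted p = 0.0242). All 4 Nrp1 probe sets had positive changes, from 0.23 to 0.36, and the other 3 did not pass. At 1418084_at and 1457198_at the groups overlapped. The call was lost without double-knockout 1 (0.24, limma adjusted p = 0.115), control 1 (0.33, adjusted p = 0.0611), control 2 (0.28, adjusted p = 0.111), the variance trend (adjusted p = 0.14) or the filter (adjusted p = 0.0544). Nrp2 read 3847 and 3794 in double knockouts, against 3141 and 3352 in controls at its brightest probe set (0.23 ± 0.09, limma adjusted p = 0.0901). At the dim 1447343_at it read 382 and 331 in double knockouts, against 584 and 561 in controls and fell (-0.66 ± 0.17, limma adjusted p = 0.0195). That fall was lost without double-knockout 1 (-0.76, limma adjusted p = 0.0571), double-knockout 2 (-0.56, adjusted p = 0.109), control 1 (-0.64, adjusted p = 0.0568) or the filter (adjusted p = 0.0565). The 4 Nrp2 probe sets thus had changes of both signs, and no single direction is given for the gene.

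Set side by side, known ligands and receptors stood as follows, all read at the brightest probe set from the same 4 arrays. Sema3f and its receptor Plxna3 both fell (-1.15 and -0.46), while Nrp2, which also receives Sema3f, did not pass. Sema5a and Plxnb3 both rose (0.46 and 1.34). The Sema5a call was lost in some alternative fits, and Plxnb3 was tested through its double knockouts, with controls that averaged below the filter level. Plxnd1 rose (0.63) beside a Sema3e that did not pass (0.29), and Nrp1 rose (0.30) beside a Sema3a that did not pass (0.25). Sema4c and Sema4g fell (-1.23 and -0.41) while their receptor Plxnb2 read 0.35 and did not pass. Sema7a fell (-0.78) while Plxnc1 did not pass (0.17), and Plxnb1 fell (-0.94) while Sema4d did not pass (0.11). Plxna1 fell (-0.42) while Sema6d did not pass (0.21), and neither Sema6a nor Plxna2 passed (-0.31 and -0.01). On the mean of each gene's probe sets Sema3e and Sema4d rose as well. Plxnb2, which has 1 probe set, passed in that fit on the same values. The calls of Plxna3, Plxnb3, Nrp1, Sema4g and Plxna1 were also lost in some alternative fits, as given above. The differences within pairs were not tested.

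The signalling partners were read from a list of 64 co-receptors, kinases, GTPases and cytoskeletal effectors, of which 60 were on the array with a single symbol and 58 were tested. Of these 13 fell and 9 rose, or 37.9%, with a median log2 change of -0.06, beside 27.3% and 0.06 over all genes tested. The number that rose was 3 without double-knockout 1, 4 without double-knockout 2 and 5 without control 1. The collapsin response mediators, phosphoproteins through which Sema3a reaches microtubules, gave 4 falls and 0 rises among 5 genes, where 11.0% of all genes tested fell. Dpysl4 read 1962 and 1538 in double knockouts, against 4258 and 4250.3 in controls (log2 change -1.28 ± 0.12, limma adjusted p = 0.000115). Crmp1, a member made by neurons, read 14163 and 11462 in double knockouts, against 17775 and 18974 in controls (-0.53 ± 0.09, limma adjusted p = 0.00319; adjusted p = 0.0777 without the variance trend). Dpysl3 and Dpysl5 fell by 0.46 and 0.51 on the log2 scale, and Dpysl2 did not pass (-0.04). Beside these stand the neuronal markers, of which Tubb3, Dcx and Elavl3 fell by 0.75, 0.73 and 0.72 on the log2 scale and Stmn2 and Elavl4 by 0.38 and 0.32, while Snap25 and Syt1 rose by 0.62 and 0.46.

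Among other partners, Mical3, a flavoprotein of the Mical family that disassembles actin downstream of plexins, read 880.3 and 754 in double knockouts, against 1244 and 1329 in controls (-0.65 ± 0.13, limma adjusted p = 0.00707). It did not pass without double-knockout 2 (-0.54, limma adjusted p = 0.0598). Cdk5r1, the activator of the kinase Cdk5 that phosphorylates collapsin response mediators, read 8145 and 7364 in double knockouts, against 11554 and 11751 in controls (-0.59 ± 0.08, limma adjusted p = 0.000602). Those 4, Dpysl4, Mical3, Cdk5r1 and Crmp1, were the largest called falls of the list.

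Among the 4 largest called rises were those of Ptk2b, Rras and Met. Rras, a GTPase that plexins inactivate, read 737 and 793 in double knockouts, against 406 and 458 in controls (0.80 ± 0.16, limma adjusted p = 0.00505; 0.75, adjusted p = 0.0574 without double-knockout 2). Met, a receptor tyrosine kinase that couples to plexins of the B family, read 462 and 432 in double knockouts, against 220.2 and 332 in controls (0.69 ± 0.22, limma adjusted p = 0.0486). Met did not pass without double-knockout 1, double-knockout 2 or control 1 (0.64, 0.74 and 0.41, limma adjusted p = 0.222, 0.164 and 0.236), nor without the filter (adjusted p = 0.133), without the variance trend (adjusted p = 0.0907) or with quantile normalization (adjusted p = 0.0504). Ptk2b, a tyrosine kinase also made by macrophages, read 442 and 462 in double knockouts, against 35.0 and 86.2 in controls, so that it was tested through its double knockouts, with controls below the filter level (2.70 ± 0.35, limma adjusted p = 0.000547). The change ran from 2.08 to 3.20 over 10 alternative fits, and Ptk2b was not tested without double-knockout 1, without double-knockout 2 or at the stricter filter. The microglial list beside it rose at 11 of 11 tested genes. The co-receptors L1cam and Nrcam, which pair with neuropilins, had changes of -0.11 and -0.20 and did not pass. Chl1, of the same adhesion family, fell (-0.41 ± 0.08, limma adjusted p = 0.00364), and the adhesion protein Cntn2 rose (0.51 ± 0.13, limma adjusted p = 0.0203), so that 1 fell and 1 rose of 13 tested co-receptor and adhesion genes. That is 15.4% called, where 27.3% of all genes tested were called.

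**Figure D4:**
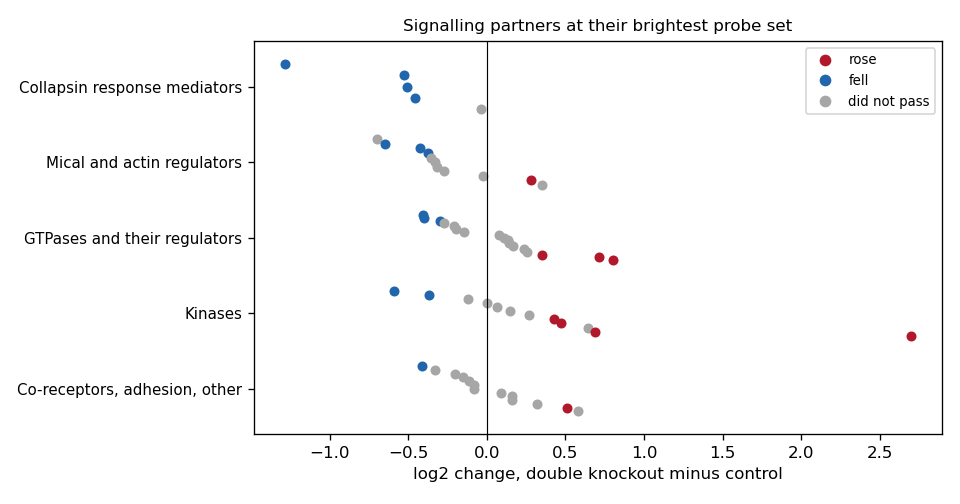
Log2 change (double knockout minus control) of the 58 tested signalling partners at the brightest probe set, 1 point a gene, in 5 groups by role. Of the collapsin response mediators 4 of 5 fell, where 11.0% of all genes tested fell. The point farthest to the right is Ptk2b at 2.70, whose controls lay below the filter level.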

How the data were processed

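Total RNA of whole brains was labelled by in vitro transcription and hybridised to 1-colour Affymetrix arrays, per the labels' protocols. The authors deposited linear intensities, 1 per probe set and array, and the submitters' processing notes name MAS5 5.0. With 2% of values trimmed at both ends every array averaged 1000, which shows a common scaling that would hide a shift of most transcripts. Detection calls and the genome build are not given in the sources used here. Of 45101 probe sets, 64 array controls were left out. Symbols came from the platform annotation, and 31 of 31 member genes matched RefSeq by gene ID, with 0 updates.

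Signals were taken as log2(signal + 16), which understates changes of dim genes. Probe sets with a mean above the 40th percentile (7.41, signal 154.6) were kept, 27022 of 45037. Double knockout minus control was fitted with limma 3.58.1 in R 4.3.3 (lmFit, eBayes with a variance trend), with Benjamini-Hochberg adjustment over all probe sets kept. Rose, fell and called stand for an adjusted p below 0.05. The fit had 2 residual and 8.33 prior degrees of freedom, and its p-values rest on the spread within these pairs of arrays. Each gene was read at its brightest probe set, and probe sets were not compared with each other in level. The steps were tested on simulated data. Only 2 arrays per group limit the precision. Members, lists and alternatives were chosen with earlier results of these data known. Every member is named; values are given for each called one, and of the partners for the 4 largest called rises and falls, of which 1 rise is not reported here. Values of members that did not pass, Dpysl2, Dpysl3, Dpysl5, L1cam, Nrcam, Chl1, Cntn2, Kdr and Flt1, single marker genes, the ligand and receptor pairs and the promoter motifs were added after values were seen. The alternatives changed the scaling (quantile, median centring), the pseudocount (1, 64), the filter (none, 60th percentile), the eBayes variance trend and robust setting, the replicate block, the summary of several probe sets per gene (their mean) and the arrays used (each left out).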

Additional observations from a re-analysis of the deposited data

How the results depend on the processing

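Of 24 called member probe sets, 11 passed in every alternative fit that tested them, and none of the 24 changed direction in any. The 11 were those of Sema3c, Sema4c, Sema6c, Sema7a, Plxnd1 and the brighter one of Plxnb1, both of Sema3f, both of Sema4a, and 1434776_at of Sema5a, with 1425840_a_at of Sema3f tested in 10 of 13. On the mean of each gene's probe sets Sema3c lost its call (0.25), and Sema3e, Sema4d and Plxnb2 gained one (0.38, 0.46 and 0.35). Plxnb2 has 1 probe set, so its values were the same in both fits. Without the filter on dim probe sets, 4 member probe sets, 3 member genes and 3 partner genes rose, against 9, 7 and 9 in the fit reported. Without the variance trend 4 member genes rose, and 3 partner genes rose and 3 fell, against 13 that fell. With single arrays left out, the member probe sets that rose numbered 3 to 8 and those that fell 9 to 13. Member genes that rose numbered 2 to 5 and those that fell 6 to 9, and partner genes 3 to 8 and 9 to 12. In each such fit the genotype with 1 array is assumed to vary like the other. Over all probe sets, the counts that rose and fell were 1471 and 1643 without the variance trend, 1458 and 1674 without double-knockout 1, and 1712 and 1806 without double-knockout 2, against 3152 and 3125. The cause was not tested. With the replicate number as a block, 11 member probe sets rose and 15 fell, 8 member genes rose and 9 fell, and 9 partners rose and 13 fell. Deviations of same-numbered arrays correlated at 0.003 across probe sets, so the numbers are not taken as pairs. Quantile normalization moved the median of all tested probe sets from -0.01 to 0.004 and median centring to 0.03. No detection calls were used, so signals near the filter cannot be called present or absent.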
